A study of Mus musculus with 13 samples.

Results

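Neutrophils are short-lived phagocytes that mature in the bone marrow, circulate in blood and are held in the spleen, while the normal thymus holds few of them. They carry preformed granules. Primary (azurophilic) granules are filled first, at the promyelocyte stage, with Mpo, Elane and Prtn3, secondary and tertiary granules are filled later with Ltf, Ngp, Camp and Lcn2, and the mature cell leaves the cycle and displays receptors such as Cxcr2 and Csf3r. The cells described here were chosen by 7 neutrophil genes: S100a8 and S100a9, the subunits of calprotectin, Ltf (lactoferrin), Camp (cathelicidin), Ngp (neutrophilic granule protein), Mmp8 (neutrophil collagenase) and Csf3r, the receptor for G-CSF. A cell was selected on at least 4 UMIs (unique molecular identifiers, each 1 counted transcript) of these genes, from at least 2 of them, with 0 UMIs of the B cell genes Bank1, Ebf1 and Pax5 and with 500 to 25000 UMIs in all. By this rule 1547 of 143848 cells within the UMI limits were chosen, of 148709 cells in the matrices. Of these, 1511 of 85092 cells came from wells of the WT kit that did not hold thymus, 28 of 39414 from its thymic wells and 8 of 19342 from the Mini kit, which held thymus only.

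The study compared single-cell RNA-seq methods on mouse thymus. In Parse split-pool barcoding, fixed cells are labelled in plates and the first-round well names the tissue sample. The thymic lobes came from female C57BL/6N mice 2 months old without a treatment (labelled control). The WT kit held 4 lobes (tenxP_1 to tenxP_4) and the Mini kit 4 lobes of other mice (T-1-A, T-1-B, T-2-A and T-2-B), lobes come in pairs from 1 mouse, and the tables used here do not tie lobes to mice. The 16 other tissue samples of the WT kit are named CVS_C_1 to CVS_C_5, CVS_S_1 to CVS_S_6 and YD_C_1 to YD_C_5. The labels give the kit as thymus and spleen, control and chronic stress, but not the tissue, age or treatment of each of the 16. The paper counts these 16 as non-thymic, and spleen is the only other tissue that the labels name. Their age and treatment are not given by sample, so they were put in no group and were not compared by treatment. The tissue samples held 2105 to 14200 cells within the limits, with median depths of 1526 to 7222 UMIs in the remaining cells. Levels are UMIs per 1000000 UMIs outside ribosomal RNA (CPM), summed over the cells of a set. A ratio is the CPM of the chosen cells over that of the remaining cells of the same wells. Since the cells were selected on their counts, these ratios are a description and no test was made of them, and intervals are 95% and cover counting error only.

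The chosen cells were much rarer in the thymic wells than in the other wells of the same kit. In the WT kit lobes they made up 0.176% (tenxP_1, exact Clopper-Pearson interval 0.0709 to 0.363%), 0.0685% (tenxP_2), 0.0523% (tenxP_3) and 0.0563% (tenxP_4) of cells, on 7, 8, 5 and 8 cells. In the Mini kit lobes they made up 0.0381% (T-1-A), 0.0233% (T-1-B), 0.0397% (T-2-A) and 0.0631% (T-2-B), on 2, 1, 2 and 3 cells. The highest Mini lobe lay above 2 of the WT lobes, so the kits overlapped. The mean was 0.0883% ± 0.0590 (SD, n = 4) in the WT kit and 0.0410% ± 0.0165 (SD, n = 4) in the Mini kit, a difference of 0.0473 percentage points that did not pass the exact two-sided permutation test over lobes (p = 0.0857, smallest possible 0.0286). Without tenxP_1 the difference was 0.0180. The p is too small for the number of mice, since lobes share mice, and it measures the spread between lobes.

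Over the 16 other tissue samples the share had a median of 1.00%, between 0.285% and 6.86%. The lowest, CVS_C_1 with 6 chosen cells, lay above every thymic lobe, though its interval (0.105 to 0.619%) overlapped that of every lobe. By this rule 4 of the 16 samples stood well above the rest. They were CVS_S_5 at 6.86% (242 cells), CVS_C_4 at 5.65% (340 cells), CVS_S_6 at 4.01% (112 cells) and CVS_S_4 at 3.71% (147 cells). The next was YD_C_2 at 1.81%. The B cell limit left out 16 to 317 cells a sample that met the marker rule. It left out 206 in CVS_C_2 (56 chosen) and 185 in CVS_S_3 (68 chosen), but 82 in CVS_S_4. The gap below the top 4 samples therefore depends on that limit. The labels do not tie the prefixes of the sample names to tissue, age or treatment. Listed by prefix only, the medians were 1.04% for CVS_C (0.285 to 5.65), 2.39% for CVS_S (0.590 to 6.86) and 0.956% for YD_C (0.849 to 1.81). The 3 ranges overlapped. Wells that split 1 sample differed in share by 1.06 to 3.34 times, with a median of 1.35.

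**Figure D1:**
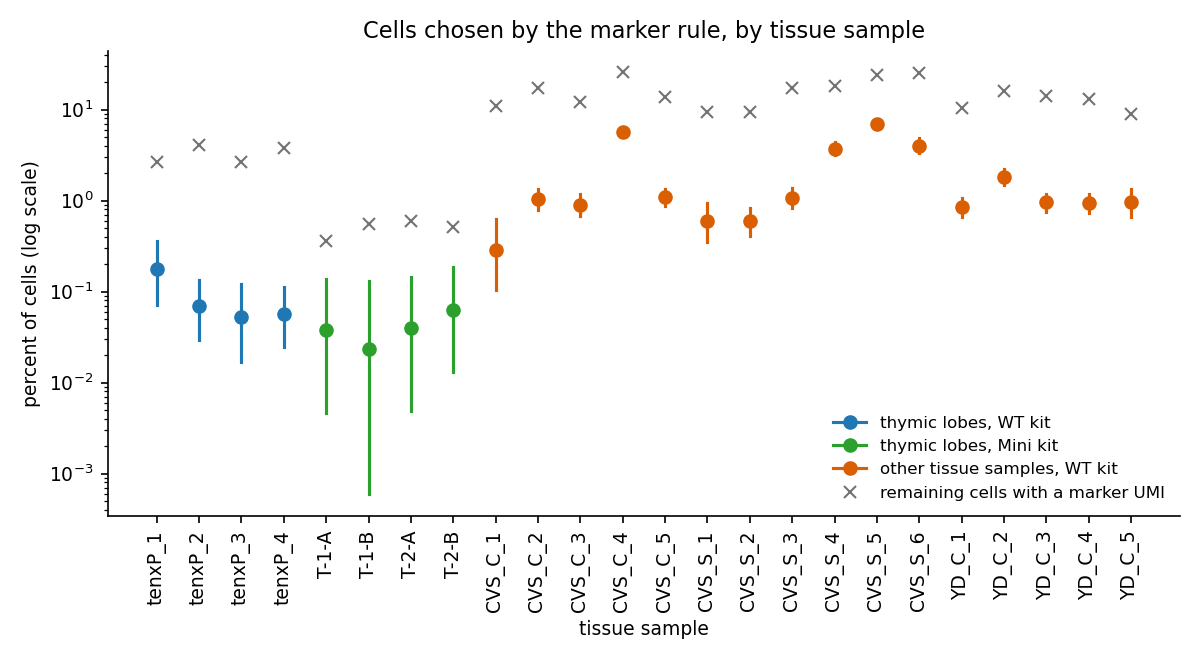
Percent of cells chosen by the marker rule (circles, with 95% Clopper-Pearson bars) and percent of remaining cells with at least 1 UMI of the 7 marker genes (crosses), per tissue sample on a log axis. All 8 thymic lobes lie at or below 0.176%, the 16 other samples at 0.285% or above, and the crosses of the WT kit lobes (2.62 to 4.03%) lie above those of the Mini kit lobes (0.362 to 0.596%).

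UMIs of the 7 marker genes were also found outside the chosen cells, and at a level that followed the kit and the sample. At least 1 marker UMI was held by 2.62 to 4.03% of the remaining cells in the 4 WT kit lobes and by 0.362 to 0.596% in the 4 Mini kit lobes. The groups did not overlap (exact permutation p = 0.0286, the smallest that 4 lobes against 4 can give). With every cell thinned to 500 UMIs the shares were 0.395 to 0.634% and 0.0211 to 0.0698%, again without overlap (exact permutation p = 0.0286). These p-values too are over lobes that share mice, so they are too small for the number of mice. They also rest on the marker counts that the rule used, so nothing is read from them beyond the values given. In CPM, the summed marker level of the remaining cells was 9.95 to 16.9 in the WT lobes and 1.20 to 2.62 in the Mini lobes. In the 16 other samples 8.93 to 25.9% of the remaining cells held a marker UMI, most in CVS_C_4, CVS_S_6, CVS_S_5 and CVS_S_4, the samples with the most chosen cells. UMIs of Bank1, Ebf1 or Pax5 split the lobes in the same way, in 17.7 to 29.8% of the remaining cells of the WT lobes and 1.64 to 2.36% of those of the Mini lobes. The kits used different mice and only the WT kit held samples other than thymus, so kit, mice and neighbouring samples cannot be told apart.

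Secondary granule genes and calprotectin defined the 1511 cells of the other wells. These genes were used to choose the cells, so their values only describe them. Ltf stood at 7114 CPM (interval 7015 to 7214) against 105 in the remaining cells, Ngp at 4004 against 53.6, S100a9 at 3695 against 56.3, S100a8 at 1169 against 16.8, Camp at 506 against 7.78, Mmp8 at 547 against 7.73 and Csf3r at 1549 against 42.2. A UMI of S100a9 was found in 92.0% of the chosen cells and in 6.26% of the remaining ones, of S100a8 in 69.6% and 2.65%, of Ngp in 65.9% and 3.64%, and of Camp in 35.7% and 1.36%, at median depths of 1611 and 2914 UMIs. Il1b, the remaining gene of the label check and not part of the rule, was at 321 CPM against 15.4.

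Among these genes, 3 lie near each other on chromosome 9. In GENCODE M21 (GRCm38), Camp spans chr9:109847379-109849617 on the minus strand, Ngp chr9:110419747-110423012 on the plus strand and Ltf chr9:111019271-111042767 on the plus strand. Their promoters are shown because these are secondary granule genes used to choose the cells. The RefSeq sequence (GRCm38.p6) runs 250 bases before to 50 after a start that differs from the GENCODE gene ends above. Most of the Camp window lies inside the GENCODE span of the gene, so its number of matches holds for that window only. Capitals mark matches on either strand to TTNNGNAA, the core of the binding motif of the C/EBP family, whose member Cebpe drives secondary granule genes.
Ltf promoter: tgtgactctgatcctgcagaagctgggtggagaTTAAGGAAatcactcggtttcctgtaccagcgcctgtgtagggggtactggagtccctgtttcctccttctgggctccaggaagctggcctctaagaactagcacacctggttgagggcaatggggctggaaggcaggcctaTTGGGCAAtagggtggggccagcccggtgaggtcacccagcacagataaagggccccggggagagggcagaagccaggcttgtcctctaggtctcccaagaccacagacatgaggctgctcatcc
Ngp promoter: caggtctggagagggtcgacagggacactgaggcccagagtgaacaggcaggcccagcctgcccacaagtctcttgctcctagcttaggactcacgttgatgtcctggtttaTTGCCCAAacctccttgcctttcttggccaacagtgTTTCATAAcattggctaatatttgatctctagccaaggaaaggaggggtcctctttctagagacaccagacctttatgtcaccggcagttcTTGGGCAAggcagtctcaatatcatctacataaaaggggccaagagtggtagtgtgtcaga
Camp promoter: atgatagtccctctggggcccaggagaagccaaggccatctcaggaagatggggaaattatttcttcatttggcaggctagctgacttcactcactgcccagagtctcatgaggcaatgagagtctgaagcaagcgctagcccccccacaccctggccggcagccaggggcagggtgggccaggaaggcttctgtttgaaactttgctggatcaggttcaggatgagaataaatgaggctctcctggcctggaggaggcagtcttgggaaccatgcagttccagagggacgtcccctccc
The windows are chr9:111019042-111019341 (plus strand) for Ltf with 2 matches, chr9:110419558-110419857 (plus strand) for Ngp with 3, and chr9:109849407-109849706 (minus strand) for Camp with 0. Among 14 neutrophil genes looked up, 13 had an entry and 10 of the 13 held the motif, against 40.7% of 32851 promoters of that length. The motif GAGGAAG, bound by PU.1 (gene Spi1), was found on either strand in 5 of the 13 and in 13.6% of all. A match is a description of the letters in the window and not a bound site.

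Genes outside the rule that stood high included many known neutrophil genes. Of 9024 genes with at least 20 UMIs in the chosen cells of the other wells, 834 (9.24%) were at least 4-fold higher than in the remaining cells, and the median ratio was 0.851. Nothing is read from these counts, because the rule used the same cells. Besides, a gene scarce in the remaining cells reaches 20 UMIs only where it is high in the chosen cells. The list counts and list medians below are therefore descriptions too, to be set beside the 9.24% of all tested genes. The secondary and tertiary granule list had 13 of 13 members at least 4-fold higher and a median ratio of 61.8, with Ltf, Ngp, Camp and Mmp8 of the rule among them. Lcn2 (lipocalin 2, which binds bacterial siderophores) was at 750 CPM against 10.2, Cd177, a surface glycoprotein of neutrophils, at 1131 against 15.5, Mmp9 (gelatinase) at 604 against 9.78 and Chil3, a chitinase-like secreted protein, at 389 against 7.18. Itgam, the CD11b chain of the integrin Mac-1, was at 1476 against 52.7 and its partner Itgb2 at 633 against 140. In the 14 other samples with at least 30 chosen cells, Lcn2 in the chosen cells ran from 353 to 1055 CPM (median 729) while the remaining cells reached at most 47.1, and Cd177 ran from 463 to 1482 (median 1106) against at most 68.6. Chil3 overlapped the remaining cells, at 96.4 in the chosen cells of CVS_C_3 against 97.0 in the remaining cells of CVS_S_5.

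**Figure D2:**
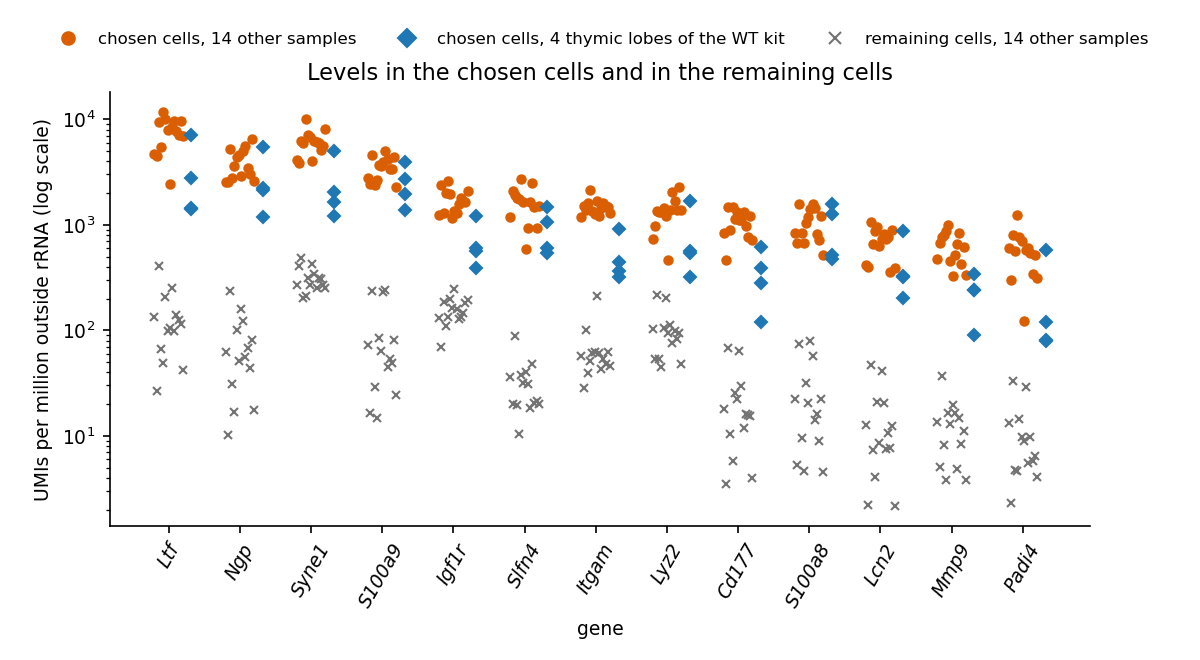
Level of 13 genes in CPM (log axis) in the chosen cells of the 14 other tissue samples with at least 30 of them (circles), in the chosen cells of the 4 WT kit lobes (diamonds) and in the remaining cells of the 14 samples (crosses). Circles and crosses do not overlap for any of the 13 genes. Ltf, Ngp, S100a9 and S100a8 were used to choose the cells, so their separation follows from that choice. Some genes not drawn do overlap, among them Mpo, Chil3 and Il1r2. Il1r2 was at 51.8 in the chosen cells of YD_C_5 and at 179 in the remaining cells of CVS_S_5.

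Primary granule genes were present at a low level and unevenly between samples. Of 7 members with enough UMIs, 5 were at least 4-fold higher (median ratio 11.7). Mpo (myeloperoxidase) was at 169 CPM against 8.79, Prtn3 (proteinase 3) at 30.2 against 0.970 and Elane (neutrophil elastase) at 22.6 against 0.529. Mpo ran from 0 in CVS_C_2, CVS_S_2, YD_C_3 and YD_C_5 to 579 CPM in CVS_C_3, with a median of 93.8 over the 14 samples. Few cells gave these UMIs, 57 of 1511 in all, and the 60 UMIs of CVS_C_3 came from 1 cell. These levels overlapped those of the remaining cells, which reached 41.1.

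Of the receptors for chemoattractants 8 of 9 were at least 4-fold higher (median ratio 37.2), against 9.24% of all tested genes. Cxcr2, the receptor for CXC chemokines, was at 352 CPM against 7.47, Fpr2, a formyl peptide receptor, at 165 against 3.90, C5ar1, the C5a receptor, at 124 against 3.08 and Ltb4r1, the leukotriene B4 receptor, at 56.4 against 1.30. The exception was Cxcr4, the receptor that retains neutrophils in the marrow, at 62.9 against 60.4. Of 21 other surface receptors 16 were at least 4-fold higher (median ratio 7.37), among them Trem3 at 211 against 4.32, Trem1, which amplifies inflammatory signals, at 73.6 against 1.55, and Il1r2, the IL-1 decoy receptor, at 455 against 9.44. CVS_S_5 held 746 of the 1266 Il1r2 UMIs, and without it the level was 225 CPM. The inhibitory Fc receptor Fcgr2b, which B cells also carry, was at 89.1 against 117.

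Inflammatory mediators were mixed, with 14 of 18 members that had at least 20 UMIs, of 24 measured, at least 4-fold higher (median ratio 15.5). Alox5 (5-lipoxygenase, which makes leukotrienes) was at 380 CPM against 6.85 and its partner Alox5ap at 411 against 12.7. Hdc, which makes histamine, was at 273 against 7.35, and Retnlg, a resistin-like protein, at 124 against 1.83. The chemokine and cytokine genes Ccl3, Ccl4, Cxcl1 and Il1a were at or near 0, with 1, 1, 0 and 0 UMIs in 1511 cells. The oxidase that makes the respiratory burst was raised in 4 of 6 genes (median ratio 5.36), with its catalytic chain Cybb at 1094 against 194, Ncf1 at 818 against 105 and Ncf4 at 551 against 108. Cyba and Rac2 were at 2.42 and 1.90 times the remaining cells.

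Among transcription factors 8 of 13 were at least 4-fold higher (median ratio 6.91). Cebpe had the highest ratio of the list, 72.6, on 89 UMIs, and Mxd1, a MYC antagonist of differentiating cells, was at 1061 against 51.3. Spi1 was at 413 against 59.8, while Irf8, which favours monocytes and B cells over neutrophils, was at 47.8 against 232. In the list for extracellular traps and the cytoskeleton 7 of 14 were called (median ratio 4.20), with Padi4, which citrullinates histones in such traps, at 539 against 7.71 and Anxa1 at 1122 against 20.4. The interferon list had 7 of 13 (median ratio 4.02). Slfn4 at 1565 against 26.4 and Ifitm6 at 140 against 2.44 led it, while Ifit3 was at 5.03 against 6.49. Among kinases and adaptors 5 of 14 were called (median ratio 1.76), Fcer1g at 10.7 times and Fgr at 9.04 times leading, and Lyn, Syk and Plcg2, which B cells use as well, were at 1.33, 0.806 and 0.947 times. Of the survival list 0 of 4 were called (median ratio 0.725), with Mcl1 at 284 against 209 and Bcl2 at 156 against 800.

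**Figure D3:**
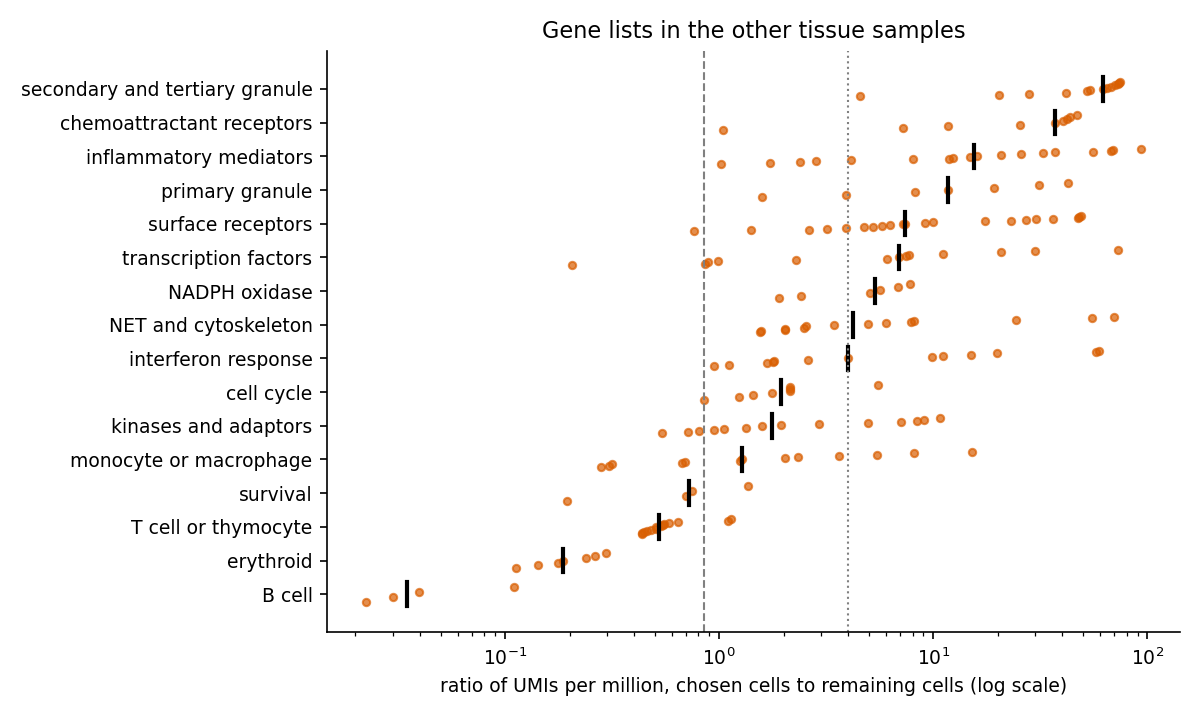
Ratio of the level in the chosen cells of the other wells to that in the remaining cells (log axis) for each list member with at least 20 UMIs (points), with the list median (black bar). The dashed line is the median of all 9024 genes, 0.851, and the dotted line is 4-fold. Secondary and tertiary granule genes have the highest list median, followed by chemoattractant receptors, and B cell genes the lowest. The granule list holds Ltf, Ngp, Camp and Mmp8 of the rule, and the rule left out cells with UMIs of Bank1, Ebf1 or Pax5. The ends of this order therefore follow in part from the choice of cells, and the order is a description only.

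The 15 genes with the highest ratios outside the rule, with at least 50 UMIs, were led by the stefin A cluster: Stfa3 (159), Cstdc5 (114), Stfa2 (111), Cstdc4 (105), Cstdc6 (94.8) and Stfa2l1 (93.4). Stefins are cysteine protease inhibitors, and these copies are near-identical, so the split of reads among them is uncertain. CVS_S_5 also weighed on them, and without it Cstdc5 fell from 98.8 to 50.1 CPM, Stfa2 from 76.2 to 46.7, Stfa2l1 from 81.9 to 53.2, Stfa3 from 32.7 to 18.1 and Cstdc6 to 20.3. Olfm4, an olfactomedin stored in granules of some neutrophils, was at 94.6 times the remaining cells, Fcnb, a ficolin, at 81.3, Itgb2l, an integrin chain, at 75.7 and Inhba, the activin A subunit, at 74.1. Olfm4 was at 305 CPM and ran from 132 in YD_C_3 to 603 in YD_C_4. Singled out after their values were seen, Syne1, which codes for a nuclear envelope protein, was at 5770 CPM against 295 and Igf1r, a growth factor receptor, at 1575 against 139. The lowest ratios were B cell genes such as Cr2 (0.0137), Cd22 (0.0143) and Fcer2a (0.0151), which follows the choice of cells without B cell factors.

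Markers of other cells were checked in the same cells. The B cell list summed to 168 CPM against 3227 in the remaining cells, the T cell list to 1159 against 2162, the erythroid list to 141 against 775 and the list for eosinophils, basophils and mast cells to 15.1 against 259, most of the last being Il5ra, at 252 in the remaining cells. The monocyte and macrophage list summed to 2166 against 514, with 3 of 13 members called (median ratio 1.27). Lyz2, which neutrophils share, was at 1273 against 84.2, F13a1 at 357 against 43.7 and Fn1 at 231 against 42.5. The monocyte markers Csf1r, Ccr2 and Ly6c2 were at 2.33, 2.02 and 3.62 times the remaining cells, under the 4-fold limit, and the macrophage gene C1qa had 4 UMIs in all. F13a1 was at 1390 CPM in CVS_S_5 and at 0 in CVS_S_2, with a median of 136, and without CVS_S_5 the level over the other wells was 147 CPM for F13a1 and 108 for Fn1. CVS_S_5 was also the highest sample for Fn1 (837), Il1r2 (1585) and Chil3 (797) and the lowest for Ltf (2431, against a median of 7887). Lyz2, of the same monocyte list, was lowest of the 14 samples there, at 465 CPM against 736 to 2301 in the others. How far monocytes among the chosen cells of CVS_S_5 enter these values was not tested.

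The B cell limit in the rule left out more cells of the other wells than were kept. In the other wells 1998 further cells met the marker rule but held UMIs of Bank1, Ebf1 or Pax5, with a median depth of 5006 UMIs, against 1611 in the chosen cells. UMIs of these 3 genes were common there, in 51.5 to 94.8% of all remaining cells by sample (median 73.4%), so they are no special trait of the 1998 cells. Their summed marker level was 6310 CPM, against 18584 in the chosen cells, and 10 neutrophil genes outside the rule (Lcn2, Cd177 and others) summed to 2237 against 6803. The 3 B cell factors summed to 4635 CPM, against 6100 in all remaining cells, so neutrophil and B cell transcripts were found under the same barcodes. They were 2.39% of the remaining cells and held 80.3% of the marker UMIs of those cells. With them left out of the comparison, the ratio rose from 67.9 to 954 for Ltf, from 73.8 to 483 for Lcn2, from 69.9 to 436 for Padi4 and from 36.8 to 66.7 for Csf3r, and 853 genes were at least 4-fold higher in place of 834. Counting them as neutrophils would give 3509 cells in the other wells and a median share of 2.85% (1.11 to 11.6). Doublets were not called, and whether these barcodes held more than 1 cell was not tested.

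Near the threshold the cells were less clearly neutrophils. The 68 chosen cells with exactly 4 marker UMIs had 2568 CPM over the 10 neutrophil genes outside the rule, the 108 cells just outside with 3 UMIs had 1067, and the 161 cells left out with at least 4 UMIs from 1 gene had 2863, against 6803 in all chosen cells and 150 in the remaining ones. In the other wells the chosen cells gave fewer UMIs than the remaining cells, with a lower median in 14 of 16 samples (median ratio 0.693), whereas in the thymic lobes the median was lower in 1 of 8 (median ratio 2.09). The 1998 cells left out for B cell UMIs had a median of 5006 UMIs, and their part in this difference was not tested. The chosen cells of the other wells had a lower percentage of ribosomal RNA than the remaining cells in 15 of 16 samples. Their Malat1 plus Neat1 percentage was lower in 16 of 16. At 500 UMIs outside ribosomal RNA, the median cell showed 328 to 404 genes in the chosen cells, fewer than the remaining cells in 14 of 15 samples, by a median of 10 (difference of chosen minus remaining -29 to 6).

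Within the chosen cells of the other wells, 2 overlapping classes were set apart. Mki67 or Top2a, genes of dividing cells, had a UMI in 495 of the 1511 (32.8%). With every cell thinned to 500 UMIs it was 18.5%, against 8.45% of the remaining cells, both pooled over samples. By sample, the Mki67 level was lower in the chosen than in the remaining cells of CVS_C_3, CVS_S_4, YD_C_3 and YD_C_5. It was higher in the other samples with at least 30 chosen cells, most so in CVS_S_5 (848 against 126 CPM). Counting error covers the difference in CVS_C_3, CVS_S_4 and YD_C_3 of the lower samples. It also does so in CVS_S_3, CVS_S_6 and YD_C_1 of the higher ones, so no direction is read in these samples. The chosen cells with Mki67 or Top2a were deeper (median 2651 UMIs, against 1390 in the others). They had more Mpo (361 against 1.34 CPM), Elane (47.1 against 1.34), Fcnb (404 against 73.9), Camp (694 against 343) and Ngp (5163 against 2995). They had less Csf3r (536 against 2430), Cxcr2 (116 against 557), Il1b (55.6 against 551), Mmp9 (224 against 934) and Retnlg (27.0 against 207). Ltf was close in both, at 7514 and 6766. The Mpo UMIs of this class came from 55 of its 495 cells, so they are no trait of the class as a whole. The second class, 244 cells (16.1%, and 28.9% with every cell thinned to 500 UMIs), had no UMI of Ltf, Camp, Ngp or Mmp8 and was chosen through S100a8, S100a9 and Csf3r. Their Csf3r level, 5227 CPM against 971 in the cells with a granule gene, follows from that choice. Outside the rule, Il1b was at 1647 CPM against 112 and Cxcr2 at 1007 against 249. Lcn2 was at 76.7 against 856, Cd177 at 97.8 against 1294 and Syne1 at 669 against 6572. Mmp9 (563 against 610) and Retnlg (92.5 against 128) were not higher, and the monocyte marker Csf1r was at 262 against 66.9. Of the rule genes, S100a8 was at 370 against 1294 and S100a9 at 1713 against 4007. Mpo was at 441 CPM against 126, but its 167 UMIs came from 5 cells, which all held Mki67 or Top2a as well, and the 216 cells of the class without Mki67 or Top2a had 0.

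The mix of these classes varied between tissue samples. The share without a granule UMI ran from 3.57% in CVS_S_6 to 69.8% in CVS_C_3 (median 20.4%). With cells thinned to 500 UMIs it ran from 9.82% to 79.2% (median 33.0%), with the same 2 samples at the ends. The share with Mki67 or Top2a ran from 5.66% in CVS_C_3 to 42.6% in YD_C_2 (median 31.9%), and from 0 to 27.7% when thinned, again with these 2 samples at the ends. In UMIs, Csf3r over Ltf was 0.0701 in CVS_S_6 and 1.12 in CVS_C_3. Outside the rule, Il1b and Cxcr2 had their ends in the same 2 samples, Il1b at 1466 CPM in CVS_C_3 and 61.8 in CVS_S_6, and Cxcr2 at 1302 and 61.8. Other genes had other ends, such as Lcn2 (highest in CVS_C_4, lowest in YD_C_3) and Padi4 (highest in CVS_S_2, lowest in CVS_S_5). At the deposited depth the 4 samples with the highest neutrophil share had the 4 lowest shares without a granule UMI (3.57 to 6.61%). This did not hold with cells thinned to 500 UMIs, where CVS_S_5 stood at 32.2%, above CVS_S_2 (15.6%), YD_C_5 (21.2%) and YD_C_4 (24.3%), while CVS_S_6, CVS_C_4 and CVS_S_4 stood at 9.82, 15.3 and 16.3%. No group is given for these samples in the labels and no test was made.

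**Figure D4:**
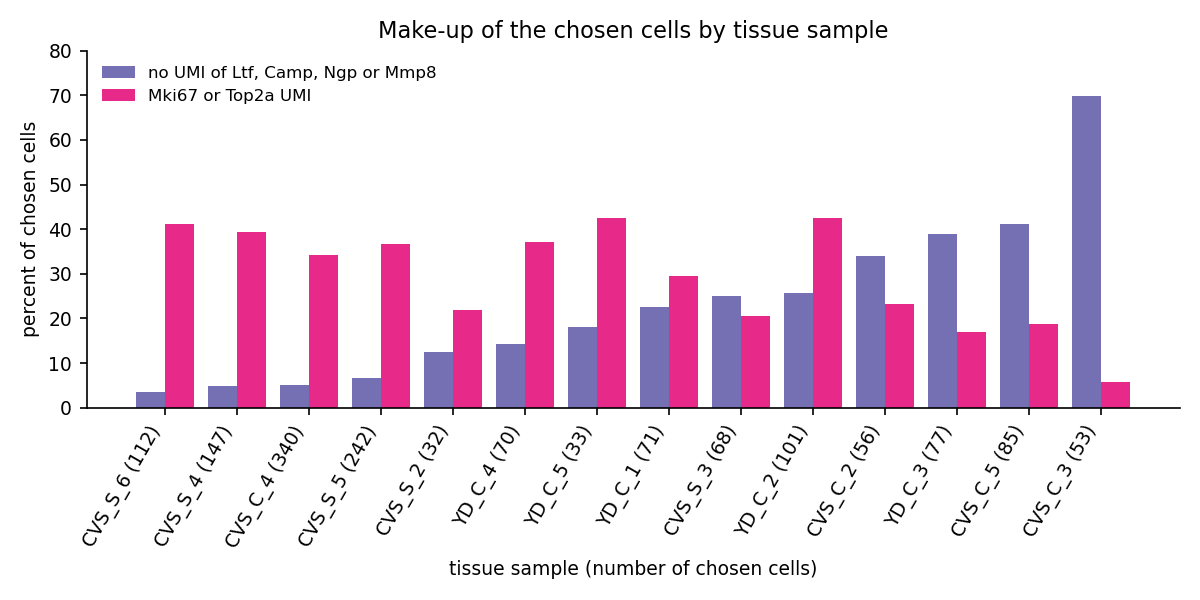
Percent of the chosen cells with no UMI of 4 granule genes and percent with a UMI of Mki67 or Top2a, for the 14 other tissue samples with at least 30 chosen cells, at the deposited depth and ordered by the first. The share without a granule UMI rises from 3.57% to 69.8%, and the Mki67 or Top2a share is lowest, 5.66%, in the sample where the first is highest.

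The neutrophil label held only in part for the 36 thymic cells. Over 28 WT kit cells the marker genes were high, with Ltf at 2878 CPM (387 UMIs) against 3.53 CPM in the remaining thymic cells, Ngp at 2446 against 2.05, S100a9 at 2268 against 3.59, S100a8 at 848 against 1.32 and Camp at 580 against 0.640. The lobe tenxP_1 gave 187 of the Ltf UMIs, and without it Ltf was at 1846 CPM, Chil3 at 508 in place of 825 and Lyz2 at 443 in place of 684. But the cells also carried thymocyte transcripts near the level of thymocytes. The T cell and thymocyte list summed to 15525 CPM against 20888 in the remaining cells in the WT kit, and to 19490 against 25647 in the Mini kit, while the chosen cells of the other wells had 1159. The recombinase gene Rag1 was at 625 CPM against 805 in the remaining cells, and Themis, a thymocyte signalling protein, at 3019 against 4135. By lobe, Themis was at 1414, 4102, 3718 and 2144 CPM in tenxP_1 to tenxP_4, and at most 402 in the 14 other samples, so the groups did not overlap. The 10 genes most raised in the thymic chosen cells over those of the other wells were thymocyte genes such as Rag1, Dntt and Arpp21, and lay at 0.718 to 1.14 times the remaining thymic cells in the 2 kits together.

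The 36 cells split by their thymocyte transcripts. Only 8 of the 28 WT kit cells and 0 of the 8 Mini kit cells had fewer than 3 UMIs of the T list. These 8 cells were small (840 to 2710 UMIs, median 1060). They gave 4.55% of their UMIs outside ribosomal RNA to the 7 marker genes at the median (0.373 to 7.05%). The median in the chosen cells of the other wells was 1.67%, and 1.86% in those under the same T list limit. The rule used the marker counts, so these shares only describe the cells. The other 20 were large (1380 to 16646 UMIs, median 7078), with a marker share of 0.573% and a T list share of 1.45% at the median. The limit is a number of UMIs, so the depth of a cell partly decides its class. The chosen cells of the other wells reached a T list share of at most 1.28%. The 8 Mini kit cells had 1795 to 14861 UMIs and a marker share of 0.433% at the median, with 1 cell (7522 UMIs, 112 marker UMIs) at 1.66%. Another, in T-2-B, lay at the limit with 3 T list UMIs, a T list share of 0.144%, and had 4 marker UMIs. Of the WT kit cells with 3 or more T list UMIs, 1 in tenxP_1 stood apart, with 9212 UMIs, 237 of marker genes, and 6 of the T list.

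**Figure D5:**
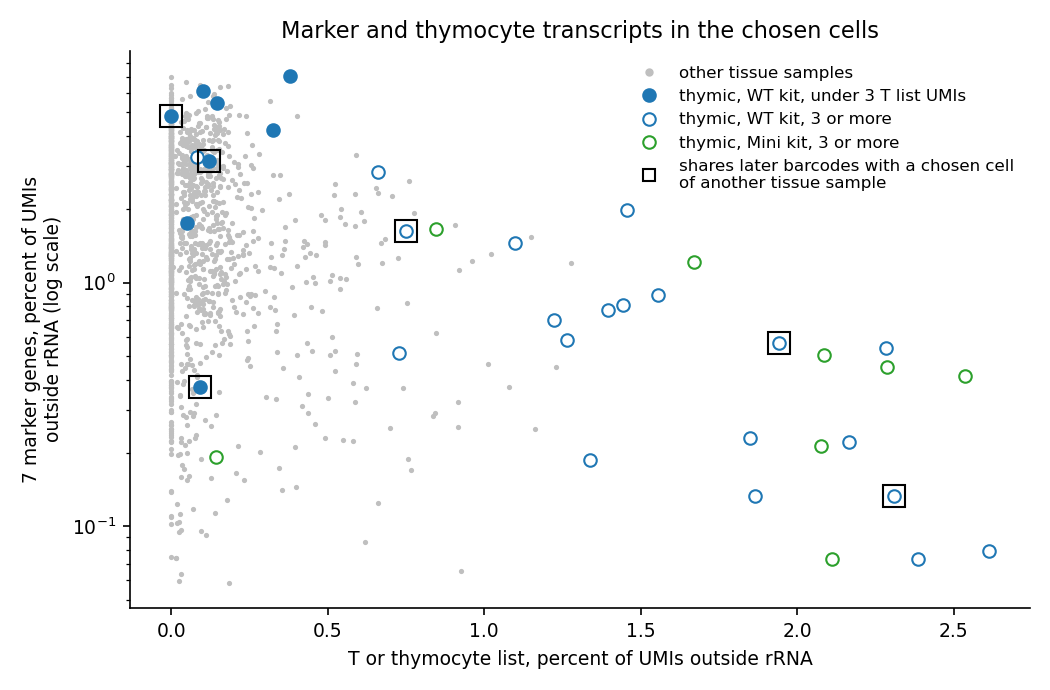
Share of UMIs outside ribosomal RNA on the 7 marker genes (log axis) against the share on the T cell and thymocyte list, for each chosen cell. Grey dots are the 1511 cells of the other wells, filled circles the 8 thymic cells with fewer than 3 T list UMIs, open circles the other thymic cells, and squares mark the 6 cells that share later barcodes with a chosen cell of the other wells; most open circles lie to the right of the grey dots, up to 2.61%.

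Barcodes were compared because a cell is named by its first-round well and 2 later rounds within a sublibrary. Of the 28 thymic WT kit cells, 6 (21.4%, Clopper-Pearson 8.30 to 41.0%) had the same sublibrary and both later barcodes as a chosen cell of the other wells, differing only in the first-round well. Among the remaining thymic cells this was 2.22%, and 6.27% among those with a marker UMI. It was 3 of 8 in the cells with fewer than 3 T list UMIs and 3 of 20 in the others. In the other wells 28 of 1511 chosen cells (1.85%) shared these barcodes with a chosen cell of another tissue sample, against 2.00% of the remaining cells. With the sharing cells left out, the thymic share differed between kits by 0.0264 percentage points (exact permutation p = 0.257). The part of shared barcodes in the thymic counts was not tested. Cell barcodes found in both kits numbered 460, and 0 of them belonged to the thymic chosen cells of the WT kit.

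Of 1494 genes with at least 20 UMIs in the WT kit thymic cells, 95 (6.36%) were at least 4-fold higher than in the remaining thymic cells, and the median ratio was 1.02. In the Mini kit it was 21 of 462 (4.55%), with a median of 1.05. Of 13 granule genes 9 had at least 20 UMIs in the WT kit cells, as had 4 of 6 oxidase genes, and all of these were called. A gene scarce in thymocytes reaches 20 UMIs in so few cells only where it is high in them, so these counts support nothing. Outside the rule the highest ratios over both kits were those of Chil3 (1563), Lcn2 (1009), Slfn4 (811), Cd177 (716) and Abca13, an ABC transporter (454), on 126, 62, 156, 52 and 110 UMIs. Hdc (305), Anxa1 (253), Lyz2 (146), Cybb (59.1) and Itgam (51.7) followed among the 15 highest. In the 8 WT kit cells with fewer than 3 T list UMIs, Ltf was at 13507 CPM (interval 11152 to 16213), Ngp at 9984, S100a9 at 8692, Slfn4 at 3876, Chil3 at 2584 (1619 to 3912) and Lyz2 at 2349. These sums rest on 8514 UMIs in all, so a gene at 3 or fewer UMIs there gives no usable level. Of the 8 cells, 4 came from tenxP_1, and 3 shared later barcodes with a chosen cell of the other wells. A single tenxP_1 cell of 2710 UMIs gave 48 Ltf and 37 Ngp UMIs, more than any other of the 8.

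Few values of the thymic cells can be set beside those of the other wells, since a WT kit lobe holds 5 to 8 of them and a Mini kit lobe 1 to 3. Chil3 was at 2140, 322, 560 and 745 CPM in tenxP_1 to tenxP_4, against 96.4 to 797 in the 14 other samples, so 3 lobes lay inside that range and tenxP_1 above it. Csf3r, a gene of the rule, was at 268, 362, 200 and 179 CPM in the lobes, against 587 to 5024 in the 14 samples and 325 and 490 in CVS_C_1 and CVS_S_1, which hold 6 and 18 chosen cells. Il1b, at 344, 282, 360 and 59.6, lay within the range of 61.8 to 1466 except for tenxP_4, just below it, and Il1r2, at 306, 382, 160 and 268, lay within 51.8 to 1585. Mpo had 0 UMIs in all 28 cells, and 5 of 8 primary granule genes were at 0. In the other wells only 57 of 1511 chosen cells held Mpo, so its absence from 28 cells sets them apart from nothing. Most of these cells also hold thymocyte transcripts, which fill the denominator of a CPM. In UMIs, the median chosen cell had 30.5 of the 7 marker genes in the thymic wells of the WT kit and 21 in the other wells. The rule used these counts. Of other cell types, the dendritic list was at 0 UMIs for 7 of 7 genes, the monocyte list for 10 of 16, the B cell list for 6 of 9 and the erythroid list for 6 of 10. The dendritic list summed to 20.7 CPM in the remaining thymic cells, so in 28 cells it lies near the floor. The monocyte list summed to 944 CPM against 323 in the remaining thymic cells, 684 of it from Lyz2, the B cell list to 104 against 143 and the erythroid list to 29.7 against 18.3, on 4 UMIs.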

How the data were processed

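UMI counts per gene and cell were deposited by the authors as 2 Parse matrices, 1 for the WT kit and 1 for the Mini kit, with a cell table that gives the first-round well and the tissue sample. Per the methods, reads were aligned to mm10 with the pipeline of the kit's maker (split-pipe), 1 sublibrary at a time, before the sublibraries were joined. The 10x data were not used here. The tissue of the thymic wells of the WT kit was taken from the names in the cell table (tenxP), and the other 16 samples were left in no group.

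Cells with 500 to 25000 UMIs were kept. Levels were sums of counts over cells per 1000000 UMIs outside Rn18s-rs5, mt-Rnr1 and mt-Rnr2. Genes with at least 20 UMIs in the chosen cells of a set were compared with the remaining cells, a remaining level of 0 was raised to 3 UMIs, and at least 4-fold was called. Shares were compared over lobes by an exact two-sided permutation test (SciPy 1.17.1, Python 3.11.15, NumPy 2.4.6, pandas 2.3.3). Intervals were Clopper-Pearson for shares and exact Poisson for counts. The ratio step was checked on simulated data. Doublets were not called. Genes were named from the lists and as the 15 highest and 10 lowest ratios outside the rule (at least 50 UMIs), and the 10 most different each way between thymic and other chosen cells. The members and lists were chosen with earlier results of these data known. Gene positions came from GENCODE M21, which holds 91.3% of the 57010 gene identifiers, and 1 list entry, BC100530, had no match in the files. Alternatives were other UMI and gene minimums, no upper UMI limit, cells with thymocyte UMIs left out, thinned cells and each lobe left out. Added after seeing the data were no B cell limit, cells with shared barcodes left out, remaining cells without those that met the marker rule and held B cell UMIs, the other wells without CVS_C_4, and levels without each tissue sample or WT kit lobe, given where they moved by over 1.5 times.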

Additional observations from a re-analysis of the deposited data

Results flagged for a closer look

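The share of chosen cells in tenxP_1, 0.176%, stood apart from the other 3 WT kit lobes (0.0523 to 0.0685%), its gap to the nearest being 0.869 of the range of the group. Of 8 checks of this kind, over 4 values in each kit, this was the 1 that stood apart, and chance alone gives a flag in about 1 of 20 checks, each of the 8 being such a check. It rests on 7 cells, of which 4 had fewer than 3 T list UMIs and 2 shared later barcodes with a chosen cell of the other wells.

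Outside the chosen cells, 1998 cells of the other wells met the marker rule and held UMIs of Bank1, Ebf1 or Pax5. Such UMIs were found in 51.5 to 94.8% of all remaining cells of the other samples. In thymus there were 20 such cells in the WT kit and 2 in the Mini kit. The cause was not tested.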

How the results depend on the processing

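The difference in share between kits kept its direction in all 16 alternatives tried. It was largest with no limit on B cell genes, at 0.0937 percentage points (exact permutation p = 0.0571), on 48 WT kit and 10 Mini kit cells. It passed the exact test with at least 3 marker genes (0.0483 percentage points, p = 0.0286), on 26 WT kit and 7 Mini kit cells. With cells of 3 or more T list UMIs left out it was 0.0343 on 8 WT kit cells and 0 Mini kit cells (exact permutation p = 0.0286). The last p rests on 8 cells. Both p-values come from 16 alternatives without a correction for their number, and from lobes that share mice, so little can be read from them. Leaving out each lobe gave 0.0180 to 0.0593. Genes at least 4-fold higher in the WT kit thymic cells fell from 95 to 21 with at least 50 UMIs and to 10 without cells of 3 or more T list UMIs, and in the Mini kit from 21 to 4 and 0, since fewer genes and cells remain. The count of 834 in the other wells stayed between 662 and 853, and the median share there, 1.00%, rose to 2.85% with no limit on B cell genes and lay between 0.732 and 1.06% in the other 7 alternatives. No paired analysis was possible because the replicate numbers that the kits share in the labels are sublibraries, each of which pools all tissue samples. Chosen and remaining cells of 1 tissue sample were set side by side without a test. Of the lobes, 0 had 10 chosen cells, so paired tests within lobes of genes per cell, ribosomal RNA and lncRNA were not run. With 1 to 8 cells a lobe, depth limits every thymic level.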
